A study of Mus musculus with 24 samples.

Results

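The genes described here are 9 placenta-type genes that were low in Smchd1 heterozygous cells: Psg29, Ceacam15, Ctsj, Nrk, Plac8, Cmklr1, Tfpi, Bc1 and Spink1. They are 9 of 35591 genes in a table of raw read counts from mouse embryonic stem cells (mESCs) on the way to neuromesodermal progenitors (NMPs), the cells that build the caudal spinal cord and trunk mesoderm. They were selected on measured values, since each had been seen at a lower level in heterozygous than in control cells on day 2 of differentiation. That difference is therefore given as a description with no test, while day 0, day 2.5 and day 3 of the same 6 lines were not used to choose them.

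The 24 poly(A) RNA libraries came from 6 male lines, each derived from its own blastocyst of a Castaneus mother with normal Smchd1 and a C57BL/6 father carrying a deleted and a floxed Smchd1 allele together with MMTV-Cre, a Cre transgene under the mouse mammary tumour virus promoter. Control lines (wt, 3 lines) are Smchd1[fl/+] and carry a floxed allele that still works. Heterozygous lines (het, 3 lines) are Smchd1[del/+] and lack the paternal copy, and all 6 lines grew from oocytes that contained SMCHD1, a chromatin protein of the structural maintenance of chromosomes family. Each line was sampled on day 0 in medium with LIF, on day 2 in N2B27 with bFGF, on day 2.5 after 12 h of the Wnt activator CHIR99021, and on day 3, which gives 8 groups of 3 libraries. Library totals ran from 7.10 M to 20.8 M counts, and the smallest was wt line 2 on day 2.5. Smchd1 itself was lower in het on every day, at 66.3% of the wt level on day 0, 59.9% on day 2, 66.0% on day 2.5 and 54.7% on day 3, with no overlap between the libraries of the genotypes. Line 1 of wt stood apart in its chromosome 8 genes, whose median log2 ratio to the mean of the 6 lines was 0.194, against at most 0.071 in size for any other line and chromosome, and none of the 9 genes lies there.

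Placental gene families of the mouse are mostly rodent-specific tandem arrays, in which one ancestral gene has been copied many times and each copy is used by particular trophoblast cells. Pregnancy-specific glycoproteins (Psg) and their Ceacam relatives lie in one region of chromosome 7, while the placental cathepsins and the prolactin family each form a cluster on chromosome 13. Several genes called placental are also used by extraembryonic endoderm, the other lineage outside the embryo proper, and cultures of mESCs can contain a few cells that have turned that way. In a bulk library, fewer cells of one type and less RNA in each of them cannot be told apart.

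The name placenta-type covers unequal members. Psg29 encodes a secreted pregnancy-specific glycoprotein, Ceacam15 a member of the same immunoglobulin superfamily, and Ctsj the lysosomal protease cathepsin J of the placenta. Nrk is an X-linked kinase of the germinal centre kinase family made in the spongiotrophoblast, and Plac8 is a small cysteine-rich protein named after its high level in placenta. Cmklr1 is the receptor for the chemoattractant chemerin, Tfpi inhibits the tissue factor pathway that starts blood coagulation, and Spink1 is a secreted trypsin inhibitor of pancreas and other epithelia. These last 3 are not restricted to placenta. Bc1 is a noncoding RNA made by RNA polymerase III and known from neurons, so the label does not describe it.

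In GRCm38 the genes are spread over 6 chromosomes. Ceacam15 (ENSMUSG00000078795) lies on the minus strand of chromosome 7 at 16671331-16675705, Psg29 (ENSMUSG00000023159) on its plus strand at 17203477-17215760 and Bc1 (ENSMUSG00000115783) on its plus strand at 144914470-144914637. Plac8 (ENSMUSG00000029322) and Cmklr1 (ENSMUSG00000042190) are on the minus strand of chromosome 5 at 100553725-100572245 and 113612354-113650426. Ctsj (ENSMUSG00000055298) is on the minus strand of chromosome 13 at 61000179-61005959, Tfpi (ENSMUSG00000027082) on the minus strand of chromosome 2 at 84432855-84476775 and Spink1 (ENSMUSG00000024503) on the minus strand of chromosome 18 at 43728082-43737557. Nrk (ENSMUSG00000052854) is on the plus strand of chromosome X at 138914430-139010532. No exon of any member overlaps an exon of another gene in the GENCODE vM21 annotation of this build.

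Defining trophoblast markers were mostly near the limit of detection. Synb, a fusion protein of the syncytiotrophoblast, had 0 counts in all 24 libraries. Elf5, a transcription factor of trophoblast stem cells, did not exceed 1.72 CPM (counts scaled to a common library size) in any library, and Prl3d1, Prl3b1 and Syna did not exceed 1.52, 2.51 and 1.02 CPM. Gcm1, the factor that drives syncytiotrophoblast formation, reached 5.84 CPM. Tpbpa, which marks the spongiotrophoblast, was the exception among the 7 and reached 84.2 CPM. All 6 defining endoderm factors were present, with highest levels of 106 CPM for Gata4, 53.9 for Gata6, 53.4 for Sox7, 43.5 for Sox17, 21.0 for Foxa2 and 8.23 for Hnf4a.

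Promoter sequences were compared for 2 pairs of neighbours, each pair holding a member and a gene near it whose het libraries were all below the wt libraries on day 2. The windows run from 250 bases before to 50 bases after the gene start, as RefSeq places it on GRCm38.p6. Ctsj and Tpbpa sit 58195 bases apart on chromosome 13 and both went from 0 or near it on day 0 to a measurable level on day 2. Capitals mark the letters CCAAT, searched on both strands, in the Ctsj window at chr13:61005876-61006175 and the Tpbpa window at chr13:60941887-60942186, both on the minus strand.
Ctsj: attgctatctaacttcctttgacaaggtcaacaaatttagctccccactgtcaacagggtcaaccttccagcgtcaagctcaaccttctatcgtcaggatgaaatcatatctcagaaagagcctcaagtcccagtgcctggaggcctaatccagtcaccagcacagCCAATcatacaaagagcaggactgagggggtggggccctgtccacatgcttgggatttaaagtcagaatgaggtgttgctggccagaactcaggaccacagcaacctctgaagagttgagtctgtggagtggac
Tpbpa: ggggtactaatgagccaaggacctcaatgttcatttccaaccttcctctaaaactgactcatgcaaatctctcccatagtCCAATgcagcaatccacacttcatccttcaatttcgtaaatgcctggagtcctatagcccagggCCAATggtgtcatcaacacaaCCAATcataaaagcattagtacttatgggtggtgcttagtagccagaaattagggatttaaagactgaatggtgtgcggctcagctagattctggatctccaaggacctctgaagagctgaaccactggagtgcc
Ctsj holds CCAAT once, starting 84 bases before the gene start, and Tpbpa holds it 3 times, of which the nearest starts 85 bases before. Ceacam15 and Ceacam9 lie 46224 bases apart on chromosome 7 and are read in opposite directions. Capitals mark the longest run of bases they share, 33 bases, in the Ceacam15 window at chr7:16675656-16675955 on the minus strand and the Ceacam9 window at chr7:16721679-16721978 on the plus strand.
Ceacam15: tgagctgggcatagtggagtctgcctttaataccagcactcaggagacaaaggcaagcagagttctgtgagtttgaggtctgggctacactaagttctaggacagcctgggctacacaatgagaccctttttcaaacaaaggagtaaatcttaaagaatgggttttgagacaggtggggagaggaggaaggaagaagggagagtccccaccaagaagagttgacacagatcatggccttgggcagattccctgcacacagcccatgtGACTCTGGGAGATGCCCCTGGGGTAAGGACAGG
Ceacam9: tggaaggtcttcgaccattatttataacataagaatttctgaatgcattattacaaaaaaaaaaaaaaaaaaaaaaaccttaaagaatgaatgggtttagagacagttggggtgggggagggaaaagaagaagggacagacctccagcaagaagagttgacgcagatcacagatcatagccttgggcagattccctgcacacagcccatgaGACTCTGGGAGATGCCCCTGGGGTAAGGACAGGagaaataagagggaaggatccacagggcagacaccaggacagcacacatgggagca
Over the 244 bases in which the Ceacam windows can be laid side by side without gaps, 54.1% of bases were identical.

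Short motifs were searched on both strands in the windows of the 8 members other than Spink1, some of which have more than 1 start, and in all 32851 windows of the same length. No motif searched is contained in another. A member with more than 1 window was counted if any of them matched, whereas the share over all windows counts each window alone. CCAAT was found in 5 of the 8 members (Bc1, Cmklr1, Ctsj, Nrk and Plac8) and in 37.4% of all windows. GATAA, the core bound by GATA factors, was found in 2 members (Psg29 and Tfpi) and in 25.4% of windows. GCCNNNGGC, the letters bound by AP-2 factors, was found in Ceacam15 and Tfpi and in 16.6% of windows, and AACAAT, bound by SOX factors, in Bc1 and Tfpi and in 10.7%. GGAATG, bound by TEAD factors, was found in none of the 8 members and in 14.7% of windows. A match describes letters in a window, and no more.

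Bc1 is shown whole because its sequence bears on how it was counted. The transcript of 168 bases in GENCODE vM21, at chr7:144914470-144914637 on the plus strand, carries its longest run of A in capitals.
Bc1: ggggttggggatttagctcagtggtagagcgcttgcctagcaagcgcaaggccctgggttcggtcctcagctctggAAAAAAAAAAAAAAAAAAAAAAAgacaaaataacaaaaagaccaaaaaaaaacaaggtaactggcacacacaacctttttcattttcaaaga
That run is 23 bases long, and A makes up 41.7% of the transcript. RNA polymerase III transcripts carry no added poly(A) tail, and poly(A) selection of an internal A-rich stretch was not tested here. Of the 94 windows of 75 bases, the read length, that fit in Bc1, 11 also occur in transcripts of other genes (Akap5 and Lrrc17), and for Psg29 the share was 0.242% of windows. The other 7 members had no window in common with another gene.

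Day 2 separated the genotypes for all 9 genes, which is what chose them. The het mean was between 16.7% (Ceacam15) and 61.9% (Nrk) of the wt mean, with a median of 45%, and no het library reached the lowest wt library. Across all genes tested, 7.91% had all 3 het libraries below all 3 wt libraries on that day, and 0.50% were called lower by the edgeR quasi-likelihood test at an adjusted p under 0.05. The number of genes called on day 2 hung on single lines, being 85 with all lines, 211 without wt line 1, 137 without wt line 2, 8 without wt line 3, and 1, 3 and 0 without het lines 1, 2 and 3. With members chosen on this contrast, their count carries no further weight.

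The 3 genes with the most placenta-restricted use gave no reads on day 0. Psg29, Ceacam15 and Ctsj had 0 counts in all 6 day 0 libraries, which allows at most 0.0641 CPM over the wt group and 0.0612 CPM over the het group if 3 counts are taken as the limit. On day 2 they were present in every line of both genotypes. The plot of levels by day shows this start from 0 for these 3 genes and from a measurable level for the other 6.

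Psg29 on day 2 stood at 17.5, 25.7 and 13.4 CPM in wt lines 1, 2 and 3 and at 4.14, 2.86 and 5.48 CPM in het lines 1, 2 and 3. The lowest wt line was still more than the highest het line, and the group means were 18.9 ± 6.29 CPM (SD, n = 3) and 4.16 ± 1.31. On day 3 the wt lines had 36.8, 65.3 and 25.9 CPM and the het lines 15.7, 25.6 and 21.8. The groups were then only just apart, since wt line 3 exceeded het line 2 by a narrow margin, and scaling by library totals alone made them overlap. Against the limit for day 0, the day 3 level of Psg29 was at least 666-fold higher in wt and at least 344-fold higher in het.

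Ceacam15 had the largest day 2 difference of the set as a share of the wt level. Levels of 6.46, 5.17 and 7.16 CPM in the wt lines compared with 1.08, 1.01 and 1.04 in the het lines, where 16 to 18 reads were counted per library. On day 3 the wt lines reached 13.4, 14.9 and 13.5 CPM and the het lines 4.40, 9.0 and 4.38. All 3 wt lines were higher than every het line, and the wt lines varied little, at 13.9 ± 0.822 CPM (SD, n = 3) against 5.93 ± 2.66 in het. The day 3 level was at least 217-fold above the day 0 limit in wt and at least 96.9-fold in het.

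Ctsj differed less. It stood at 34.5, 31.7 and 26.1 CPM in the wt lines and 14.5, 12.2 and 15.8 in the het lines on day 2, with every wt line higher. On day 2.5 the values were 15.1, 29.0 and 28.9 CPM in wt and 29.96, 29.7 and 11.0 in het, so that the highest single library was a het line and the genotypes overlapped. On day 3 the means were 34.1 ± 12.2 CPM in wt and 20.7 ± 4.75 in het, again with overlap.

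**Figure D1:**
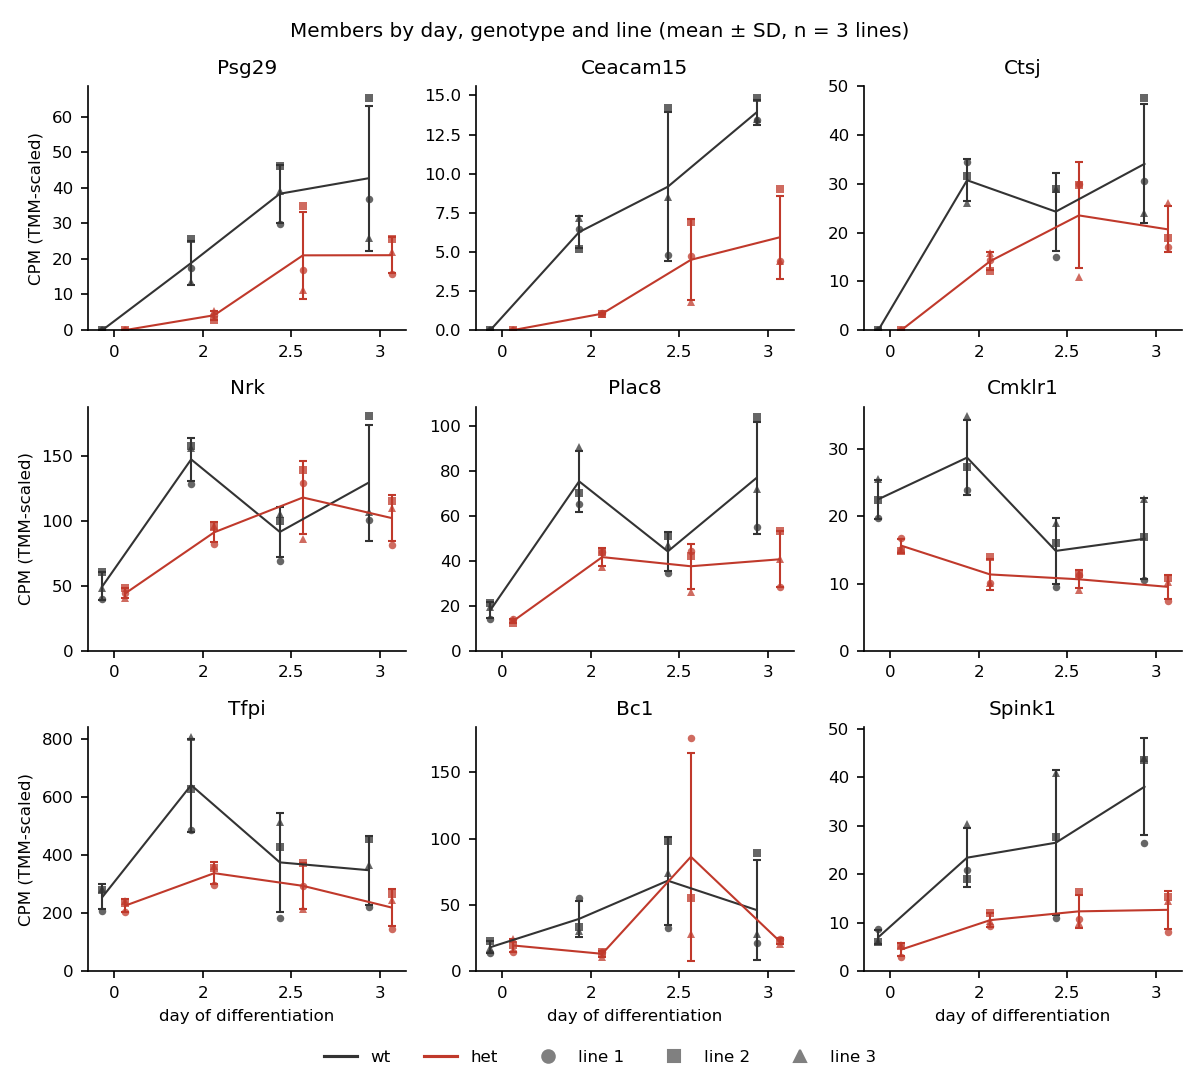
Levels of the 9 genes in CPM after TMM scaling (a trimmed mean of the log ratios between libraries), one panel a gene, against the day of differentiation (days drawn at equal spacing). Points are single lines (circle line 1, square line 2, triangle line 3), lines and bars give the mean ± SD of 3 lines, wt in black and het in red. Psg29, Ceacam15 and Ctsj start at 0, and on day 2 every het point lies below every wt point in all 9 panels.

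Nrk, Plac8 and Tfpi were already present in mESCs and had a higher level on day 2 than on day 0 in all 6 lines. The wt mean of Nrk went from 49.7 ± 10.6 CPM on day 0 to 147.5 ± 16.7 on day 2, and the het mean from 44.3 ± 4.02 to 91.2 ± 7.64. On day 2 the wt lines had 128.1, 157.9 and 156.3 CPM and the het lines 82.4, 95.1 and 96.2, so the gap lay between het line 3 and wt line 1. On day 2.5 this order turned, with 69.1, 100.1 and 105.3 CPM in wt and 129.3, 139.0 and 85.8 in het, where 2 het lines exceeded every wt line.

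Plac8 on day 2 was measured at 65.1, 70.2 and 90.9 CPM in the wt lines and 44.0, 43.9 and 37.1 in the het lines. On day 3 it stood at 54.9, 104.1 and 71.9 CPM in wt and 28.2, 53.3 and 40.6 in het. The genotypes overlapped on day 2.5 and were apart again on day 3, though wt line 1 and het line 2 nearly met. Its day 0 levels overlapped under TMM scaling and did not under the size factors of DESeq2 or library totals alone.

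Tfpi was the most abundant of the coding members by reads. The wt lines had 487.6, 628.7 and 807.5 CPM on day 2 and the het lines 295.5, 354.7 and 363.6, with every wt line higher. On day 2.5 the wt lines spread from 184.6 in line 1 to 513.1 in line 3, a range that contained all 3 het lines (293.6, 374.0 and 215.3). On day 3 the means were 348.2 CPM in wt and 219.6 in het, and the libraries overlapped.

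Cmklr1 ended the course below its day 0 level in both genotypes. Its wt mean moved from 22.6 CPM on day 0 through 28.8 on day 2 to 16.7 on day 3, and its het mean went from 15.6 through 11.4 to 9.52. Day 0 values were 19.7, 22.5 and 25.6 CPM in the wt lines and 16.9, 14.8 and 15.3 in the het lines, with all wt lines above all het lines before differentiation had begun. On day 2 the wt lines had 24, 27.4 and 35 CPM and the het lines 10.02, 14 and 10.1.

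Spink1 was the other gene that was apart on day 0, at 8.69, 6.13 and 6.28 CPM in wt and 2.96, 5.21 and 5.33 in het. On day 2 it stood at 21.0, 19 and 30.4 CPM in wt and 9.24, 12.1 and 10.3 in het, and on day 3 at 26.5, 43.6 and 44.1 in wt and 8.19, 15.4 and 14.4 in het. It was thus apart on 3 of the 4 days. The wt means were 23.4 CPM on day 2, 26.5 on day 2.5 and 38.1 on day 3, and the het means 10.6 CPM on day 2, 12.4 on day 2.5 and 12.7 on day 3.

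Bc1 had a single high het library on day 2.5. Its day 0 levels overlapped, at 14.01, 22.8 and 17.7 CPM in wt and 14.2, 20.2 and 24 in het. On day 2 the wt lines had 55.3, 33.1 and 30.1 CPM and the het lines 14.7, 14.2 and 10.6. The wt mean was then above its day 0 value and the het mean below it, at 39.5 and 13.2 CPM. On day 2.5 a single library, het line 1 with 175.5 CPM, exceeded all others, while het lines 2 and 3 had 55.5 and 27.9 and the wt lines 32.7, 98.3 and 73.8. On day 3 wt line 2 was high at 89.1 CPM, and the other 5 lines lay between 20.4 and 27.9.

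Per length of exon, Bc1 had the highest level of the set on day 2 in wt, at 235.1 ± 82.2 RPKM (CPM per kilobase of exon, SD, n = 3), though its 168 bases are close to the read length and such a value is uncertain. Tfpi followed at 117.4 ± 29.3 RPKM, Plac8 at 47.4 ± 8.59, Spink1 at 32.1 ± 8.36, Ctsj at 21.6 ± 2.99 and Nrk at 16.0 ± 1.82. Cmklr1 at 8.44 ± 1.66, Ceacam15 at 4.5 ± 0.727 and Psg29 at 3.46 ± 1.16 RPKM were lowest. Plac8 did not exceed Spink1 beyond the summed SDs, nor Spink1 exceed Ctsj, nor Ceacam15 exceed Psg29, and in het the last 2 stood at 0.752 ± 0.0240 and 0.764 ± 0.241 RPKM.

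Days that did not choose the genes were then tested, and the edgeR test with its filter on low counts called none of the 9 on any of them. Each line came from its own blastocyst, so p-values measure the spread between lines, and these are the same lines as on day 2. On day 0, 5 of the 6 genes with counts had a lower mean in het, at 63.9% (Spink1) to 107% (Bc1) of wt. Cmklr1 and Spink1 were without overlap, and across all genes 7.28% had every het library below every wt library. The edgeR test called 0 of the 6 members and 0% of all genes as lower, while 3 of the 6 (Cmklr1, Plac8 and Spink1) had an unadjusted p under 0.05 and were lower, against 6.10% of all genes, and DESeq2 also called 0 members, where it called 0.488% of all genes lower. Cmklr1 came nearest, with a log2 fold change of -0.54 ± 0.14 (SE) and an adjusted p of 0.334.

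On day 2.5, 12 h into Wnt activation, the genotypes overlapped for every member. Of all genes, 5.20% had every het library below every wt library, and the het means ran from 46.6% (Spink1) to 129% (Nrk) of wt. The edgeR test called 0 of 9 members and 0% of all genes as lower, DESeq2 called 0 members and 0.0128% of all genes as lower, and 2 of 9 members (Spink1 and Psg29) had an unadjusted p under 0.05 and were lower, against 1.90% of all genes. Without the filter edgeR called these 2 lower, against 0.153% of all genes. Spink1 had a log2 fold change of -1.10 ± 0.38 and Psg29 of -0.85 ± 0.33, each with an adjusted p of 0.908. Line 1 of wt decided the overlap, since without it 6 of 9 members (Psg29, Ceacam15, Plac8, Cmklr1, Tfpi and Spink1) had every het library below both remaining wt libraries, against 13.2% of all genes, and without het line 2 it was 3 members, against 8.81%. The estimate for Bc1, 0.36 with all lines, was -0.71 without het line 1, and that for Ctsj, -0.03, was 0.31 without het line 3.

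By day 3 the difference had a like direction in every member. The het means were 33.3% (Spink1) to 79.0% (Nrk) of wt, and 4 of 9 members (Psg29, Ceacam15, Plac8 and Spink1) were without overlap, against 5.60% of all genes. The edgeR test called 0 of 9 members and 0.00638% of all genes as lower, which is Smchd1 alone. An unadjusted p under 0.05 was found for 8 of 9 members, all but Nrk and all lower in het, against 4.14% of all genes, and DESeq2 called 2 lower, Ceacam15 and Spink1, against 0.325% of all genes. Without the filter edgeR called the same 8 members lower, against 0.640% of all genes, and one fit of all 24 libraries called Spink1, against 0.0114%. Spink1 had a log2 fold change of -1.59 ± 0.25 with an adjusted p of 0.221, and Ceacam15 of -1.23 ± 0.27 with an adjusted p of 0.231. Leaving out wt line 1 left 7 of 9 members without overlap, against 15.1% of all genes, and on day 0 it left 5 members, against 12.3%.

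**Figure D2:**
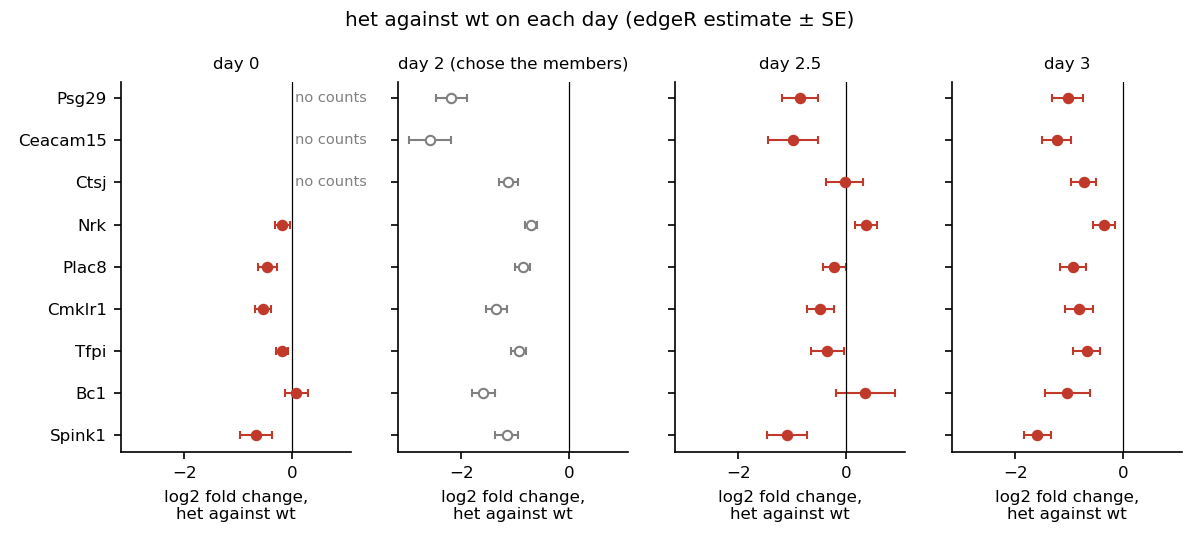
Log2 fold change of het against wt for each gene on each day, as estimated by edgeR, with bars for the standard error (n = 3 lines a genotype). Open grey symbols mark day 2, which chose the members. Every day 3 point lies to the left of 0, at -0.35 to -1.59, while on day 2.5 Nrk and Bc1 lie to the right, and the genes marked as having no counts were at 0 in all day 0 libraries.

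When the counts of days 0, 2.5 and 3 were summed per line, giving 1 value a line without day 2, 8 of 9 members had a negative log2 fold change, from -0.03 (Nrk) to -1.27 (Spink1), and Bc1 stood at 0.04. The edgeR test called 0 of 9 members and 0.00559% of all genes as lower, again Smchd1 alone, with 6 of 9 members lower at an unadjusted p under 0.05, against 3.62% of all genes, and a smallest adjusted p of 0.550 for Spink1. DESeq2 called 1 member lower, Spink1, against 0.176% of all genes. Line 1 of wt mattered here as well, because 4 members (Plac8, Cmklr1, Tfpi and Spink1) were called lower without it, against 0.721% of all genes. The estimate for Bc1 was -0.57 without het line 1, and that for Nrk 0.16 without wt line 2.

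Over the whole course from day 0 to day 3, Plac8, Spink1 and Nrk rose in both genotypes. Psg29, Ceacam15 and Ctsj, at 0 counts on day 0, passed the filter only through day 3, so that their calls as higher in both genotypes follow from that and are not counted here. Of the 6 other members, 4 were called higher by edgeR in wt, where 27.0% of all genes were, and 3 in het, where 32.7% of all genes were. Plac8 rose by a log2 fold change of 2.10 ± 0.23 in wt and 1.62 ± 0.19 in het, Spink1 by 2.44 ± 0.23 and 1.51 ± 0.28, and Nrk by 1.39 ± 0.22 and 1.21 ± 0.12, with adjusted p-values of 0.000339 or less. Bc1 rose in wt by 1.36 ± 0.42 (adjusted p = 0.0161 by edgeR, and 0.0700 by DESeq2) and had 0.23 ± 0.17 in het (adjusted p = 0.246). Cmklr1 fell in het by 0.71 on the log2 scale (SE 0.17, adjusted p = 0.00231), where 31.6% of all genes were called lower, and had -0.43 ± 0.24 in wt. Since day 0 and day 3 libraries of a number are the same line, the line was also fitted as a replicate block, which in wt called 5 of the 6 higher, Tfpi added, against 27.5% of all genes, and Cmklr1 lower, against 26.7%. In het the block called the same 3 higher, against 32.9% of all genes, and Cmklr1 lower, against 31.9%.

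Between day 2.5 and day 3 the number of members called depended on the fit. In wt Plac8 alone was called higher without a block, by 0.81 ± 0.23 on the log2 scale (adjusted p = 0.0315), where 8.99% of all genes were, and the fit with the line as a replicate block called 4 members higher, adding Ceacam15, Nrk and Spink1, where it called 15.3% of all genes higher, and Bc1 lower, where it called 15.4% lower. The Plac8 call was lost without wt line 2, at 0.63 (adjusted p = 0.178), and without wt line 3, at 0.91 (adjusted p = 0.0953), each with fewer libraries. In het only Bc1 was called lower, falling by 1.96 (SE 0.49, adjusted p = 0.0115), where 16.0% of all genes were. Without het line 1 it fell by 0.96 (adjusted p = 0.0303). The interaction, which asks whether the change from day 0 to day 3 differed between genotypes, called 0 of the 6 members with counts on day 0 and 0% of all genes by edgeR. Of those 6, 2 (Spink1 and Bc1) had an unadjusted p under 0.05, against 8.79% of all genes, and DESeq2 called 0, against 0.139%. Bc1 had an estimate of -1.13 ± 0.53 (adjusted p = 0.564) and Spink1 of -0.94 ± 0.39 (adjusted p = 0.528). For Psg29, Ceacam15 and Ctsj the interaction could not be fitted because both genotypes were at 0 on day 0.

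Relatives of the members showed how far whole families switched on. Of the 7 placental cathepsins other than Ctsj, 4 (Ctsq, Ctsr, Cts7 and Cts8) averaged at least 10 counts per library. Their summed level with the other 3 was 0 CPM in every wt library of day 0, 13.9 ± 2.46 CPM on day 2, 30.7 ± 9.37 on day 2.5 and 30.3 ± 11.7 on day 3, against 7.39 ± 3.03, 19.3 ± 11.6 and 16.2 ± 5.84 in het, and the lines overlapped on day 2.5. Neither genotype had counts for them on day 0 beyond 0.0636 CPM in 1 het library.

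The prolactin family, 25 genes for hormones of the placenta, followed the same course. Its summed level was at most 0.505 CPM in any day 0 library, 49.96 to 65.2 CPM in the wt lines on day 2 and 15.8 to 29.98 in the het lines. On day 2.5 the ranges were 92.3 to 203.4 CPM in wt and 52.1 to 136.9 in het, which overlap, and on day 3 they were 95.1 to 175.3 and 53.8 to 82.8, which do not. Among the 10 family members with at least 10 counts on average, Prl2b1, Prl7b1, Prl7d1 and Prl2a1 had every het library below every wt library on both day 2 and day 3, where 7.91% and 5.60% of all genes did. On day 3 the edgeR test called 0 of the 13 prolactin genes tested, with a median log2 fold change of -0.88 against 0.00 over all genes.

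Other Psg and Ceacam genes were weaker. The 12 remaining Psg genes summed to 3.59 ± 1.80 CPM in wt and 1.38 ± 0.258 in het on day 2, most of it Psg22, at 2.98 and 1.07 CPM. Ceacam9, the neighbour of Ceacam15, was at 8.27 CPM in wt and 2.94 in het on day 2, 27.1 and 12.8 on day 2.5, and 22.7 and 11.4 on day 3. It was without overlap on all 3 of these days, which no member was on day 2.5. The 14 Ceacam genes together, Ceacam15 left out, had 10.4 ± 1.66 CPM in wt and 5.04 ± 1.35 in het on day 2.

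**Figure D3:**
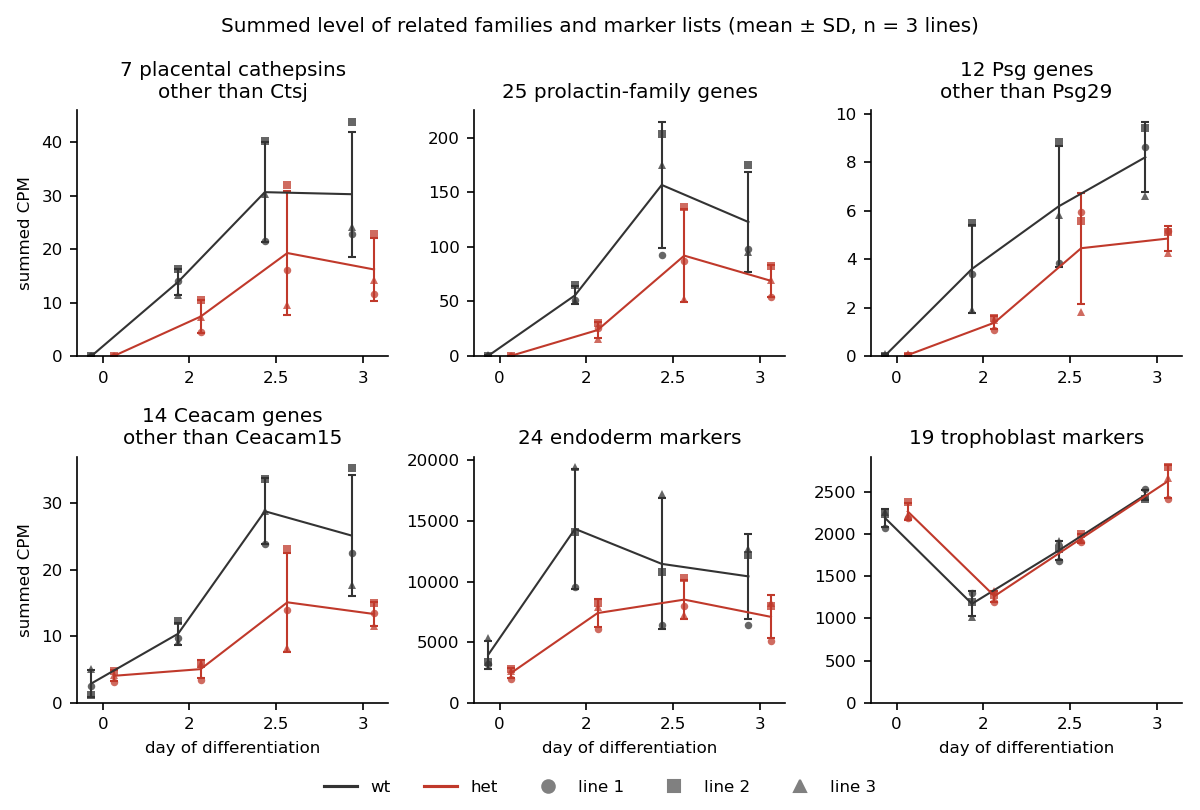
Summed CPM of 4 gene families without their member, and of 2 marker lists, against the day of differentiation, with points for single lines and mean ± SD of 3 lines, wt in black and het in red. The cathepsin, prolactin and Psg sums start at 0 or near it and are lower in het on day 2. The endoderm sum is lower in every het line on day 0 and day 2, and the trophoblast sum, most of it Peg10, overlaps between the genotypes on each day.

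Of the 54 nearest genes with at least 10 counts on average, 3 on each side of each member, every het library was below every wt library for 2 on day 0, 9 on day 2, 4 on day 2.5 and 6 on day 3, against 7.28%, 7.91%, 5.20% and 5.60% of all genes. Every het library was above every wt library for 6, 4, 3 and 2 of them. The share of all genes in that direction is not given, so these counts are not read further. The 6 below on day 3 were Psg22, the next such gene after Psg29 at 1502330 bases, Ceacam9 beside Ceacam15, and Tpbpa, Ctla2a, Gm49391 and Cts8 near Ctsj. Next to Ctsj, Tpbpa stood at 25.5 CPM in wt and 9.64 in het on day 2 and at 58.0 and 30.7 on day 3, without overlap on either day. Ctla2a and Gm49391, which lie 63554 and 63608 bases from Ctsj and so close to each other that their reads may be shared, were without overlap on day 2 and day 3 as well, at 4.71 against 2.25 CPM and 5.23 against 2.54 CPM on day 3. On the other side of Ctsj, Ctsq, the nearest of its neighbours at 29065 bases, was at 2.32 CPM in wt and 2.58 in het on day 2, and both it and Ctsr (5.30 and 2.40) overlapped between the genotypes on every day. At the Plac8 locus the nearest such gene, Cops4, was at 153.9 CPM in wt and 149.7 in het on day 2, and beside Bc1, LTO1, 463 bases away, was at 33.8 and 32.3. Calcrl, the nearest neighbour of Tfpi, was at 2.12 and 2.23 CPM.

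Partners of the members gave mixed values. Rarres2, which encodes chemerin, the ligand of Cmklr1, was at 15.8 CPM in wt and 15.7 in het on day 2 and at 18.0 and 14.7 without overlap on day 3, while Ccrl2, a receptor that binds chemerin without signalling, was at 1.35 and 0.403 on day 2, without overlap. In the tissue factor pathway, F3, tissue factor itself, was at 47.8 and 33.4 CPM with overlap, and Plat, the tissue plasminogen activator, at 29.9 and 14.9 without overlap on day 2 and at 38.7 and 22.6 without overlap on day 3. Over this list of 10 genes without Tfpi, 0 of 7 tested were called by edgeR on day 3. Map4k4 and Mink1, kinases of the same subfamily as Nrk, were at 259.8 and 228.8 CPM and at 27.9 and 28.3 on day 2, each with overlap, while Tnik, the other listed kinase, was at 2.41 and 1.20 without overlap on day 2 and overlapped on the other days.

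Endoderm markers moved with the members on day 2. Of 24 listed, 21 passed the filter, all 21 had a lower estimate in het and 14 were called lower in the libraries that chose the members, against 0.50% of all genes. Gata4, a transcription factor of the endoderm, was at 66.3 CPM in wt and 32.0 in het, Sox7, another such factor, at 35.5 and 12.4, and Cubn, the endocytic receptor cubilin of the yolk sac, at 685.7 and 327.6. Their summed level was 9521, 14110 and 19420 CPM in wt lines 1, 2 and 3 and 6058, 8255 and 7877 in the het lines, so that wt line 1 was nearest to het. The number called was 16 without wt line 1, 10 without wt line 2, 2 without wt line 3, and 0, 1 and 0 without het lines 1, 2 and 3, while the median log2 fold change stayed between -0.85 and -1.29. On day 0 the sum was 3206 to 5300 CPM in wt and 1948 to 2744 in het, and on day 2.5 (6428 to 17190 and 7214 to 10310) and day 3 (6400 to 12660 and 5053 to 8251) the ranges overlapped. On those 3 days edgeR called 0 of the 21, with median log2 fold changes of -0.75, -0.47 and -0.75. Of the 21 with at least 10 counts on average, 11 had every het library below every wt library on day 0, against 7.28% of all genes. It was 0 on day 2.5, against 5.20%, and 5 on day 3, against 5.60%. The part of the endoderm markers in the members' difference was not tested.

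Trophoblast markers as a list overlapped between the genotypes in summed level, while the sum of the 7 defining ones, which Tpbpa led in level, was lower in every het line on day 2. Of 19 listed, 13 passed the filter on day 2 and 9 had a lower estimate in het. Of the 13, 1 (Tpbpa) was called lower, against 0.50% of all genes, and the median log2 fold change was -0.10, against 0.00 over all genes. The summed level was 1018 to 1308 CPM in wt and 1195 to 1321 in het, most of it Peg10. The 7 defining markers alone summed to 21.9 to 39.5 CPM in wt and 11.5 to 16.4 in het on day 2, and to 44.9 to 87.5 and 28.1 to 38.2 on day 3, without overlap on both days. Of the 3 tested on day 2, 1 (Tpbpa) was called lower, against 0.50% of all genes. On day 2.5 the same sums overlapped, at 23.9 to 52.5 and 16.0 to 38.6 CPM. The part of trophoblast cells in the members' difference was not tested. Eomes, a factor of trophoblast stem cells and mesendoderm, was at 7.92 CPM in wt and 7.93 in het, Tfap2c at 22.2 and 19.7, and Cdx2, which NMPs also express, at 1.51 and 2.41, with every het library higher. Lower in het by mean were Hand1, at 5.17 and 3.37 CPM without overlap, and Plac1 (5.61 and 2.91) and Rhox6 (7.42 and 4.54) with overlap.

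Across the 24 libraries the members' levels went together to unequal degrees. On the log2 scale (0.5 CPM added) the median Pearson r over the 36 pairs was 0.656, with a highest value of 0.970 (Psg29 and Ceacam15), and Cmklr1 stood outside with a median of 0.068 to the others. After subtracting the mean of each group, so that genotype and day no longer contribute, the median was 0.579 and the highest pair was Nrk and Plac8 at 0.851. The libraries share 6 lines and 4 days, so these values describe them and carry no p-value.

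Beside the summed endoderm markers, 3 members stood out once group means were subtracted. Tfpi had r = 0.907, Cmklr1 0.856 and Spink1 0.815 over the 24 libraries, while Psg29, Ceacam15 and Ctsj had 0.250, 0.385 and 0.338 and Bc1 0.247. Nrk and Plac8 lay between, at 0.627 and 0.624. Psg29, Ceacam15 and Ctsj had 0 counts in every day 0 library and could not vary there, while the endoderm sum did. Their values are therefore not strictly comparable with those of the other members. Before subtraction all members except Bc1 and Cmklr1 were at 0.761 or above.

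**Figure D4:**
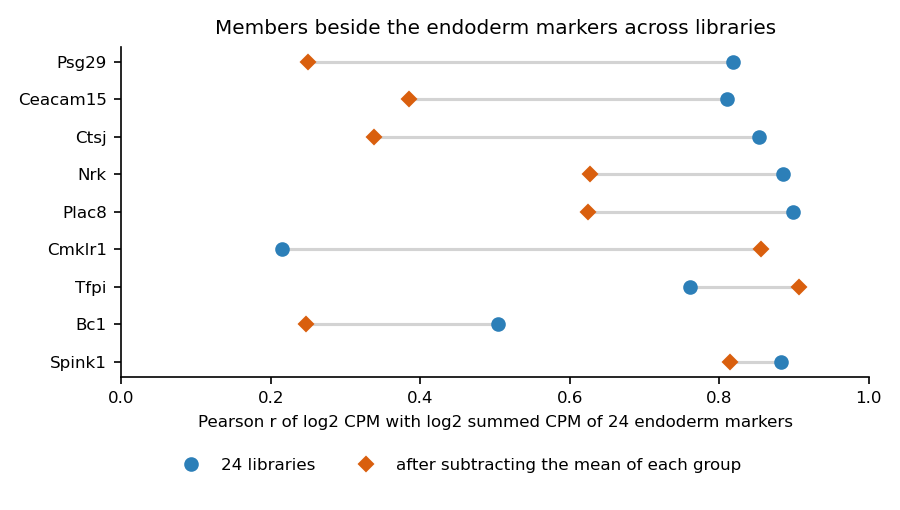
Pearson r of each member's log2 CPM with the log2 summed CPM of 24 endoderm markers, over 24 libraries (circles) and after subtracting the mean of each of the 8 groups (diamonds). After subtraction Tfpi, Cmklr1 and Spink1 are at 0.815 to 0.907, Cmklr1 having been at 0.215 and Tfpi at 0.761 before it, and Psg29, Ceacam15, Ctsj and Bc1 go down to 0.247 to 0.385.

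Genes most alike to the members' mean standardised level, among 12448 with at least 50 counts on average, were Lgmn (r = 0.954), Higd1a (0.936), Dab2 (0.934), P3h2 (0.934), Sparc (0.932), Ubash3b (0.929), Dram1 (0.926) and Scube2 (0.926). Lgmn encodes the lysosomal protease legumain, Dab2 an endocytic adaptor and Sparc a matrix protein, the last 2 being on the endoderm list, whose median r was 0.893. The median was -0.314 over the trophoblast list and -0.002 over all genes. List medians, here and after the subtraction below, cover only the 19 endoderm and 10 trophoblast markers with at least 50 counts on average. Of the defining trophoblast markers, Elf5, Prl3d1, Prl3b1, Syna and Synb fell below that count and were left out. Lgmn was at 395.0 CPM in wt and 198.8 in het on day 2, without overlap. After subtracting group means the first was Rps27, a ribosomal protein gene, at 0.895, and Sfi1 (0.876), Tomm5 (0.855), Nid1 (0.847), Cd9 (0.840), Tbc1d24 (0.831) and Adamts9 (0.829) were also among the 8 highest, with a median of -0.075 over all genes, 0.688 over the endoderm list and 0.427 over the trophoblast list. Rps27, Sfi1 and Tomm5 belong to none of the lists, and what they share with the members was not tested.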

How the data were processed

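Per the labels and the study's methods, the authors trimmed single-end reads of 75 bases with Trim Galore 0.4.4, aligned them with HISAT2 2.0.5 to GRCm38.p6 and counted reads per gene in SeqMonk. The deposited values used here are raw counts per gene, with no normalization. The strand setting of the libraries and the treatment of reads shared by overlapping genes are not given in the sources used here. The 8 deposited columns of group means and 2 tables of log2 RPKM values for other genes were not used. Groups and lines follow the labels.

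Counts were scaled by TMM over the 24 libraries to give CPM, with exon lengths from GENCODE vM21 for RPKM. Comparisons used edgeR 4.0.16 quasi-likelihood tests in R 4.3.3 on only the libraries compared, after filterByExpr, with Benjamini-Hochberg adjustment over all genes tested and a threshold of 0.05. DESeq2 1.42.0, other scalings, no filter, one fit of all libraries, the line as a replicate block and leaving out each line were alternatives. Tests were checked on simulated counts. A library of 7.10 M counts resolves 0.414 CPM (3 counts), and one of 20.8 M resolves 0.138. Such limits cover counting error only.

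Members and lists were chosen with earlier results of these data known. Named genes are the members, Smchd1, listed relatives, partners and markers, the 3 nearest genes on each side with at least 10 counts on average, and the 8 most alike by either measure, of which 1 is not reported here. Same-numbered libraries of different days are 1 line, which pairs the time comparisons (correlations of deviations -0.068 to 0.313), while wt and het numbers mark different lines (-0.113 to 0.148).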

Additional observations from a re-analysis of the deposited data

How the results depend on the processing

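Of 927 alternative log2 fold changes, 852 counted as unchanged, 42 passed the threshold newly, 3 no longer passed it and 30 changed sign. Outside day 2, unchanged means the same direction and side of the threshold. Day 2 values carry no test and are all among the 852. They kept their direction and shifted by less than the SD between lines, and the threshold was not applied to them. Of 234 alternative counts, 164 stayed within 1.5 times. The cause was not tested unless the setting itself gives it (fewer libraries). For het against wt, without a filter beyond 1 count, 369 genes were called on day 0, 87 on day 2.5 (2 members), 274 on day 3 (8 members), 18 on the summed days (1 member) and 173 in the interaction (2 members). DESeq2's Wald test called 82, 3, 116 (2 members), 53 (1 member) and 19 genes in that order. One fit of all 24 libraries called 1 gene on day 0, 1 on day 2.5 and 15 on day 3 (1 member), and with DESeq2 size factors 0 genes were called on the summed days. Without a filter 2 members were called between day 2.5 and day 3 in each genotype. With the filter 2923 genes were called there in wt and 4710 in het. The share of all genes called without it is not given, so the 2 members carry no weight.

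With the line number as a replicate block, 25 genes were called on day 0, 100 on day 3 (4 members), 22 on the summed days (3 members) and 4 in the interaction, although wt and het numbers are different lines. Between day 2.5 and day 3 in wt, where a number is 1 line, the block called 4687 genes and 5 members, and it ended no other call. Under the block Bc1 stood at -0.0276 on day 2.5 and -0.0470 on the summed days, and from day 2.5 to day 3 in het Psg29 stood at 0.0850 and Spink1 at -0.0038. Psg29 there was 0.0123 without a filter and 0.0043 in one fit of all libraries, and Tfpi from day 0 to day 3 in het was 0.0754 with library totals.

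Leaving out 1 line at a time gave 0 to 68 genes called on day 0, 0 to 211 on day 2, 0 to 3 on day 2.5, 0 to 93 on day 3 (0 to 1 member, with line 1 of wt or line 2 of het left out), 0 to 180 on the summed days (0 to 4 members) and 0 to 1 in the interaction. From day 0 to day 3 it gave 5762 to 8270 genes in wt and 8349 to 9513 in het. From day 2.5 to day 3 it gave 29 to 3098 in wt (0 to 1 member) and 2386 to 3032 in het (1 to 2 members, 2 without het line 3). Members without overlap numbered 2 to 5 on day 0, 0 to 6 on day 2.5 and 4 to 7 on day 3. Sign changes arose in the ranges of Bc1 on day 0 (-0.1039 to 0.2718), day 2.5 (-0.7093 to 0.7712) and the sum (-0.5676 to 0.4371), Ctsj on day 2.5 (-0.300 to 0.3062) and Nrk on the sum (-0.1771 to 0.1579). Over time in wt they arose from day 2.5 to day 3 for Psg29 (-0.1402 to 0.4492) and Tfpi (-0.2561 to 0.1623), and in het from day 0 to day 3 for Tfpi (-0.1818 to 0.1086) and Bc1 (-0.0151 to 0.4838). From day 2.5 to day 3 in het they arose for Psg29 (-0.333 to 0.3881), Ctsj (-0.7388 to 0.1196), Cmklr1 (-0.3262 to 0.0149), Plac8 (-0.0969 to 0.4318) and Spink1 (-0.2031 to 0.1582). Depth limits Ceacam15 most, with 16 to 18 counts per het library on day 2.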
